A study of Mus musculus with 2 samples.

Results

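The genes described here encode respiratory complexes II, III, IV and V and cytochrome c, the part of the mitochondrial respiratory chain that follows complex I together with ATP synthase. They were chosen by name alone, as array probes whose annotated symbol is Sdha, Sdhb, Sdhc, Sdhd, Cyc1 or Cycs or begins with Uqcr, with Cox4 to Cox8, or with Atp5. The rule found 53 of the 23473 probes of the array, for 50 of 19316 named genes. One of these is the pseudogene Uqcrh-ps1, which is given apart, and 49 are counted as members. Complex II has 4 members, complex III 9, complex IV 18 and complex V 17, and Cycs stands alone as the mobile carrier between complexes III and IV.

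The RNA came from vesicles in the medium of murine CTL (cytotoxic T lymphocytes, which destroy infected cells and tumour cells) after 7 days of culture. Both groups share that source and one preparation scheme, in which the medium was passed over a 750 kDa ultrafiltration membrane and then loaded on a DEAE column, a positively charged resin that holds negatively charged particles until salt displaces them. The groups are the vesicles that left the column with 0.3 M NaCl and those that left with 0.5 M NaCl, each measured on 1 single-colour array with Cy5-labelled amplified RNA. The sources used here do not give the strain, the stimulus or the number of cultures behind a fraction. With 1 array per fraction there are no replicates, no test and no standard deviation between preparations, so all differences given are those of 1 array against another.

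The respiratory chain passes electrons from food to oxygen and uses the energy released to pump protons out of the mitochondrial matrix. Complex II (succinate dehydrogenase) feeds electrons from succinate to ubiquinone, complex III hands them to cytochrome c, and complex IV (cytochrome c oxidase) gives them to oxygen. Complex V lets the protons flow back through a turning rotor and makes ATP. Activated T cells are known to raise both glycolysis and mitochondrial respiration, and subunits of these complexes are made from nuclear genes in the cytosol and then imported, so their messenger RNAs can be present in RNA released from a cell without mitochondria being present. No probe carried the symbol of a mitochondrially encoded subunit of complexes III to V (mt-Cytb, mt-Co1, mt-Co2, mt-Co3, mt-Atp6 or mt-Atp8) in the annotation used here, so those RNAs are not analysed here.

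Most of these transcripts were brighter in the 0.5 M fraction. In the deposited intensities 33 of the 43 members that passed the brightness filter were higher at 0.5 M, against 34.4% of all genes that passed. The filter required that the mean over a gene's probes reach the array's median over measured genes in either fraction, and the 7446 genes that passed are called kept genes. After each array was centred on the median of the probes that both arrays measured, 38 of the 43 lay above 0 (55.9% of all kept genes did), and their median log2 difference, 0.5 M minus 0.3 M, was 0.66, against 0.08 over all kept genes. The 38 include Uqcrc2, whose 2 probes disagreed in direction. The quartiles of the 43 were 0.33 and 0.81. In such bulk RNA fewer vesicles that carry a transcript and less of it in each cannot be told apart. The other 6 members are Cox6a2, Cox6b2 and Cox7b2, which were too dim to pass, and Uqcrq, Atp5o and Cox8c, whose only probes were empty on both arrays.

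Past 2-fold in favour of 0.5 M were 7 members, and past 2-fold in favour of 0.3 M were 0. Of all kept genes 5.24% and 2.35% passed 2-fold in these directions. The 7 were Cox7a1, Cox8a, Cox6a1 and Cox5b of complex IV, Atp5e and Atp5h of complex V and Uqcrb of complex III. Of these 7, only Cox7a1 was past 2-fold in the values as deposited, with quantile normalization, or after a loess trend of the difference with brightness was removed, so the count of 7 rests on median centring. At the other end 5 members lay below 0, which were Cox8b (-0.76), Atp5a1 (-0.52), Cycs (-0.42), Uqcrfs1 (-0.22) and Atp5g1 (-0.11). In kept genes with several probes, the probes of one gene differed among themselves with an SD of 0.55 over 358 genes, and 0.41 over the 14 genes with every probe in the upper quartile of brightness. This spread between probes is the only error that the data give, and it leaves out variation between preparations. Each single difference should be read beside that size.

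**Figure D1:**
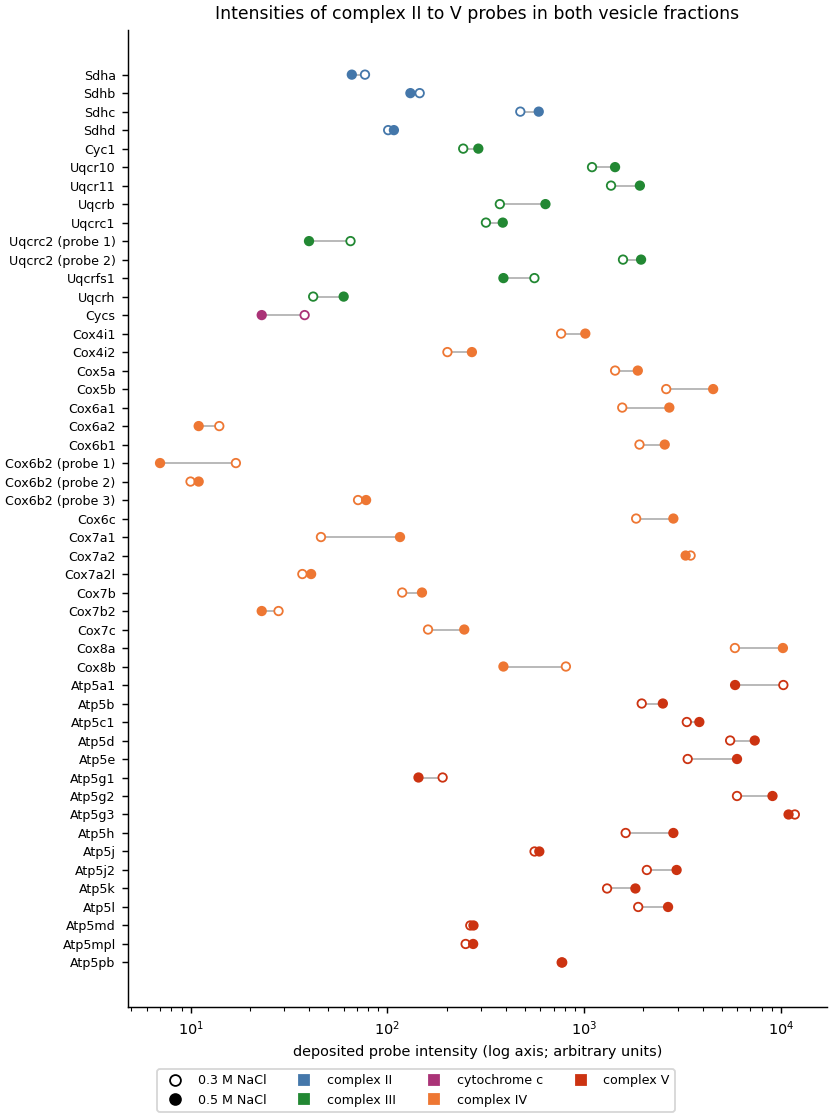
Deposited intensity of every member probe with a value on both arrays, on a log axis, with open circles for 0.3 M and filled circles for 0.5 M NaCl; rows are probes, coloured by complex. Filled circles lie to the right for most rows, whereas Atp5a1 (10289 to 5850) and Cox8b (808 to 389) run the other way.

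Brightness matters for this comparison because bright genes as a whole favoured 0.5 M. Kept genes were ranked by their mean log2 level, and the median difference was -0.04 in the dimmest 10% and 0.46 in the brightest 10%. Of the 43 members 25 lay in that brightest 10%. Each member was therefore set beside the 200 kept genes nearest to it in level that are not members. Above the median of these neighbours were 33 of 43, against 49.8% of all kept genes set beside their own neighbours, and above the neighbours' upper quartile were 15, against 25.3%. Below the lower quartile were 4, Cox8b, Atp5a1, Cycs and Uqcrfs1. Cycs passed the filter only through the 0.3 M array, so its difference had to be negative, while the other 42 members passed on both arrays. The median excess over the neighbours was 0.28, smaller than the median centred difference of 0.66.

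**Figure D2:**
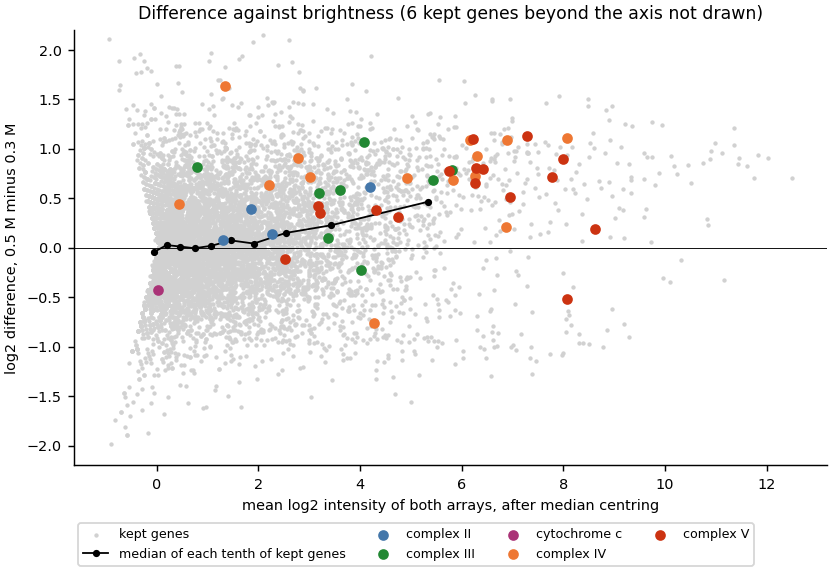
Log2 difference (0.5 M minus 0.3 M) against mean log2 intensity, both after median centring, for kept genes (grey) and for members coloured by complex; the black line joins the medians of each 10% of kept genes by level. The line climbs from -0.04 to 0.46 with brightness, and most members lie above it.

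The brightest genes were also divided. Among the 745 kept genes of the brightest 10%, 48.6% had a difference above 0.5 and 16.4% one below -0.5, with 35.0% between. Of the 25 members there, 19 (76.0%) lay above 0.5, 2 below -0.5 (Atp5a1 and Cox8b) and 4 between (Atp5g3, Atp5j, Atp5pb and Cox7a2). For the bright members of complex IV the count above 0.5 was 7 of 9, and for those of complex V it was 9 of 13. In the whole upper quartile of level, 6 of 34 members passed 2-fold in favour of 0.5 M, against 9.72% of all genes there.

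Promoters of the members are shown because the genes of these complexes are known to share regulators, among them NRF1 and factors of the ETS family such as GABP. RefSeq windows of build GRCm38.p6, from 250 bases before to 50 after a gene's start, were found for 37 of the 49 members, in 40 windows of 300 bases. Each stretch below is the 120 bases before the start, 5′ to 3′ on the gene's strand, with a motif in capitals where one lies in it. Cox6a1, Atp5e and Atp5h are past 2-fold in favour of 0.5 M, and Cycs and Cox8b are 2 of the 5 members below 0. The first 3 were picked because a motif lies in the stretch. The same stretch of Cox7a1, Cox8a and Cox5b, also past 2-fold, and of Uqcrfs1 and Atp5g1, also below 0, holds none of the motifs searched. The whole window of Cox8a has an ETS core outside that stretch. No window was found for Uqcrb, also past 2-fold, or for Atp5a1, also below 0. The stretches shown lie at chr5:115348959-115349078 (minus strand), chr2:174464102-174464221 (minus), chr11:115419920-115420039 (minus), chr6:50566570-50566689 (minus) and chr7:140900447-140900566 (minus), in that order, and each stretch ends at the base before the annotated start of transcription.
Cox6a1: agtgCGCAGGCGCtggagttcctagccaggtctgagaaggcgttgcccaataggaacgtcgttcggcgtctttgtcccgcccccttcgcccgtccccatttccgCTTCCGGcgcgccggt
Atp5e: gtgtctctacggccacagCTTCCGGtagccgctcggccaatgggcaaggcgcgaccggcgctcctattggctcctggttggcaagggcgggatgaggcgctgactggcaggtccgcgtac
Atp5h: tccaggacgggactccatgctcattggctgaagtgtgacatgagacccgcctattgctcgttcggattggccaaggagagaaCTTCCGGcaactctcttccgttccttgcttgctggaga
Cycs: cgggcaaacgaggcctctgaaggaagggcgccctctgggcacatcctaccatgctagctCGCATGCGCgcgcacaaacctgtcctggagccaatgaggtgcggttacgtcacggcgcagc
Cox8b: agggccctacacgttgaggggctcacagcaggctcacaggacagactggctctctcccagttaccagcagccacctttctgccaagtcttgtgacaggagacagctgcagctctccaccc

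The capitals in Cox6a1 are an NRF1 site (first) and an ETS core, those in Atp5e and Atp5h an ETS core, and those in Cycs an NRF1 site. The Cox8b stretch holds none of the 4 motifs searched, but its whole window has a TATA box, and that of Atp5h an NRF1 site, outside the stretch shown. The motifs were GCGCNTGCG for NRF1, CCGGAAG for the ETS core, AAGATGGC for YY1 and TATAAA for the TATA box, each on both strands of the whole 300-base window. Matches of different motifs may overlap. The NRF1 site was in 16 of the 40 member windows (40%), in 11.3% of the windows of kept genes and in 6.31% of all 32851 windows. With 1 more C at its end, a choice made after the data were seen, it was in 25%, 8.67% and 4.6%. The ETS core was in 13 windows (32.5%), against 16% and 8.86%, the YY1 site in 3 (7.5%), against 4.01% and 2.75%, and the TATA box in 4 (10%), against 9.39% and 13.6%. The kept members with the NRF1 site had a median difference of 0.69 (15 genes) and those without it 0.66 (19 genes). With the ETS core the median was 0.79 (13 genes, 4 of them past 2-fold) and without it 0.58 (21 genes, 2 past 2-fold). Past 2-fold in favour of 0.5 M were 5.24% of all kept genes. These 2-fold counts hold for median centring. As deposited, with quantile normalization or with loess, only Cox7a1 stayed past 2-fold, and its window has no ETS core. A match is a description of letters, and these medians carry no test.

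Complex by complex, the centred medians were 0.27 for complex II (4 kept genes), 0.64 for complex III (8), 0.72 for complex IV (14) and 0.58 for complex V (16). Their brightness neighbours had medians of 0.11, 0.26, 0.40 and 0.53, so the median excess over neighbours was 0.18, 0.34, 0.47 and 0.15. By this median complex IV stood furthest from genes of its brightness and complex V least far, with the 4 genes of complex II near complex V. Above the upper quartile of their neighbours were 9 of 14 genes of complex IV and 3 of 8 of complex III. For complex II it was 1 of 4, and for complex V 2 of 16. The share over all kept genes was 25.3%. The 9 of complex IV include Cox7a2l, a paralogue that is no standard subunit. The gene of complex II was Sdhd, at 0.396 against an upper quartile of 0.394. The differences between complexes were not tested, since there is 1 array per fraction.

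**Figure D3:**
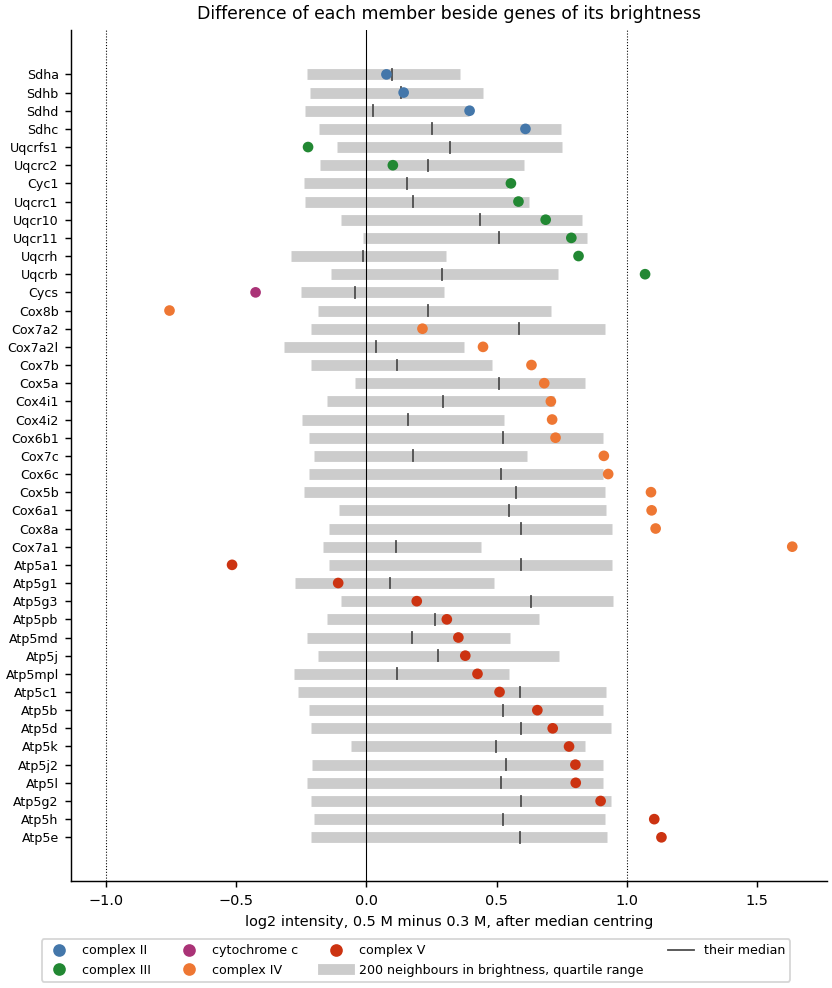
Log2 difference (0.5 M minus 0.3 M, median centred) of each kept member as a coloured point, with a grey bar for the quartile range and a dark tick for the median of its 200 neighbours in brightness; dotted lines mark 2-fold. Complex IV points mostly lie at or beyond the right end of their bars, and those of complex V mostly inside them.

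Complex II had the lowest median difference. Its 4 genes were all kept, and 0 passed 2-fold, where 5.24% of all kept genes did in favour of 0.5 M and 2.35% in favour of 0.3 M. Sdha, the flavoprotein that oxidises succinate, had intensities of 77 at 0.3 M and 66 at 0.5 M, a centred difference of 0.08. Sdhb, the iron-sulfur subunit that passes the electrons on, had 146 and 131 (0.14). Both lay at the median of their neighbours (48.5% and 50.5% of neighbours lay below them). The membrane anchors, which hold haem and the ubiquinone site, were further to the 0.5 M side. Sdhc had 474 and 588 (0.61). Sdhd had 108 at 0.5 M, 1.07 times its intensity at 0.3 M (0.40 after centring). As deposited, the anchors were thus brighter at 0.5 M and the catalytic subunits at 0.3 M, and the median of the complex turned to -0.03.

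In complex III the small accessory subunits all lay on the 0.5 M side. Uqcrb, a ubiquinone-binding subunit, had intensities of 373 and 636 (1.07, 2.10-fold after centring), and 93.5% of its neighbours lay below it. Uqcrh, the hinge protein that helps cytochrome c1 meet cytochrome c, was dim at 42 and 60 (0.81) and lay above 97.0% of its neighbours. Uqcr11 had 1370 and 1920 (0.79) and Uqcr10 had 1097 and 1436 (0.69). All 4 kept accessory subunits were above the median of their neighbours, with a median difference of 0.80. Above their own neighbours' median were 49.8% of all kept genes.

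The redox subunits of complex III went different ways. Cyc1, the cytochrome c1 that passes electrons to cytochrome c, had 243 and 290 (0.55). Uqcrfs1, the Rieske iron-sulfur protein, had 559 and 389 (-0.22, 1.17-fold lower after centring), and only 20.5% of its neighbours lay below it. The large core proteins, which carry no redox centre, also differed. Uqcrc1 had 317 and 386 (0.58). Uqcrc2 had 2 probes that disagreed in direction, one at 1576 and 1947 and the other at 65 and 40. Their mean difference of 0.10 should not be given a direction, although the count of 38 members above 0 includes it. The pseudogene Uqcrh-ps1, whose sequence may be close enough to Uqcrh for shared binding, had 457 and 426 (0.20), with 44.0% of its neighbours below it.

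Cycs, which encodes the cytochrome c that shuttles between complexes III and IV and also triggers apoptosis when it leaves mitochondria, lay on the 0.3 M side, as its passing the filter at 0.3 M alone required. It was dim, at 38 and 23 (-0.42), and 14.5% of its neighbours lay below it. With a pseudocount of 16 its difference was -0.28.

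Complex IV held the largest differences. Its catalytic core is encoded by the mitochondrial genome, so its members here are nuclear genes. Apart from Cox7a2l they encode subunits that surround and adjust that core. The 10 general subunits all lay above 0, from 0.22 to 1.11 with a median of 0.82, and 9 of 10 were above their neighbours. The shares over all kept genes were 55.9% above 0 and 49.8% above their neighbours. Cox8a, a small membrane subunit, had intensities of 5837 at 0.3 M and 10236 at 0.5 M (1.11). Cox6a1, whose muscle counterpart is Cox6a2, had 1562 and 2710 (1.09). Cox5b, a zinc-binding subunit on the matrix side, had 2613 and 4526 (1.09). These 3 lay above 89.0%, 84.5% and 89.5% of their neighbours.

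The other general subunits of complex IV were within 2-fold. Cox6c had 1838 and 2841 (0.93), and Cox7c had 161 and 246 (0.91). Cox6b1, which bridges the dimer, had 1911 and 2568 (0.73), and Cox4i1, the regulatory subunit that senses ATP, had 764 and 1014 (0.71). These 4 were each above the median of their neighbours. Cox5a had 1437 and 1874 (0.68) and Cox7b, an X-linked subunit, had 119 and 150 (0.63). Cox7a2 was the exception, at 3476 and 3279 (0.22), below its neighbours' median of 0.58, and it was negative as deposited (-0.08), with quantile normalization (-0.15) and with loess (-0.33).

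Several complex IV subunits have another gene that is used mainly in muscle, lung or testis, and these isoforms did not behave as a group. Cox7a1, the form of heart and skeletal muscle, had the largest difference of all members, from 46 to 116 (1.63, 3.10-fold), above 99.5% of its neighbours. It is dim, and a pseudocount of 16 lowered the difference to 1.28. Cox8b, another muscle form, had the lowest difference, from 808 to 389 (-0.76, 1.69-fold lower), with 8.5% of its neighbours below it. Cox4i2, the lung form, had 202 and 269 (0.71), and its general partner Cox4i1 was also at 0.71.

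The other tissue forms were dim. Cox6a2 had 14 and 11, and Cox7b2 had 28 and 23. Cox6b2 had 3 probes, at 71 and 78, 10 and 11, and 17 and 7, and its mean lay below the filter. Cox8c, the testis form, had no value. Of 13 markers of heart and skeletal muscle, 8 had a value at 0.3 M and 3 at 0.5 M, with a summed intensity of 1461 and 615. Nearly all of that was myoglobin (Mb), the oxygen-binding protein of muscle, at 1392 and 583, while Acta1, Actc1, Myh1, Myh2 and Myh4 were empty on both arrays. The part of muscle RNA in the Cox8b and Cox7a1 values was not tested. Cox7a2l, a relative of the Cox7a proteins that links complexes into supercomplexes rather than serving as a standard subunit, was dim at 37 and 41 (0.45).

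By median excess complex V lay closest to genes of its own brightness (0.15), with complex II near it (0.18). In complex V 12 of 16 genes were above the median of their neighbours, but 2 above the upper quartile. The shares over all kept genes were 49.8% and 25.3%. In the catalytic head of complex V, Atp5a1 and Atp5b encode the alpha and beta subunits that form the sites of ATP synthesis. Atp5a1 had intensities of 10289 at 0.3 M and 5850 at 0.5 M (-0.52, 1.43-fold lower), with 20.5% of its neighbours below it. Atp5b had 1962 and 2512 (0.66). The subunits are used in equal numbers in the enzyme, yet their transcripts were on opposite sides of 0 here. With loess Atp5a1 was at -1.15 and Atp5b at 0.17.

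The central stalk turns inside that head. Atp5e, the epsilon subunit and the smallest of them, had 3359 and 5982 (1.13, 2.19-fold), above 90.5% of its neighbours. Atp5d, the delta subunit, had 5520 and 7362 (0.71), and Atp5c1, the gamma subunit that forms the shaft, had 3325 and 3850 (0.51), just below its neighbours' median of 0.59. The peripheral stalk keeps the head from turning. Atp5h (subunit d) had 1626 and 2841 (1.10), whereas Atp5j (coupling factor 6) had 560 and 592 (0.38) and Atp5pb (subunit b) 769 and 774 (0.31). Atp5o, its OSCP subunit, had no value.

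The rotor ring is built from 1 protein, subunit c, that 3 genes encode with the same mature sequence and different import signals. Their transcripts had unlike differences. Atp5g2 had 5981 and 9061 (0.90), Atp5g3 had 11770 and 10936 (0.19), and Atp5g1 had 191 and 144 (-0.11). Only Atp5g2 was above its neighbours, and Atp5g3 was negative as deposited (-0.11), with quantile normalization (-0.36) and with loess (-0.49).

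The small membrane subunits, which shape the dimer of ATP synthase and the folds of the inner membrane, all lay on the 0.5 M side. Atp5l (subunit g) had 1883 and 2670 (0.80), Atp5j2 (subunit f) had 2083 and 2951 (0.80) and Atp5k (subunit e) had 1308 and 1822 (0.78). Atp5mpl had 250 and 273 (0.43) and Atp5md 264 and 274 (0.35). All 5 lay above the median of their neighbours, and 0 of 5 were past 2-fold or above the neighbours' upper quartile. Of all kept genes 5.24% were past 2-fold in favour of 0.5 M. Above their neighbours' median were 49.8% of kept genes, and above the upper quartile 25.3%. These role groups were assigned from textbook knowledge after the values were seen, so they describe the values and support nothing.

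Scaling changed the size of these medians more than their order. Complex IV had the highest median of the 4 complexes and complex II the lowest with median centring, with the values as deposited and with quantile normalization. With loess, complex V (0.17) fell just under complex II (0.19). The median over all members was 0.36 as deposited, 0.38 with quantile normalization and 0.30 with loess, beside -0.22, 0.00 and 0.00 over all kept genes.

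**Figure D4:**
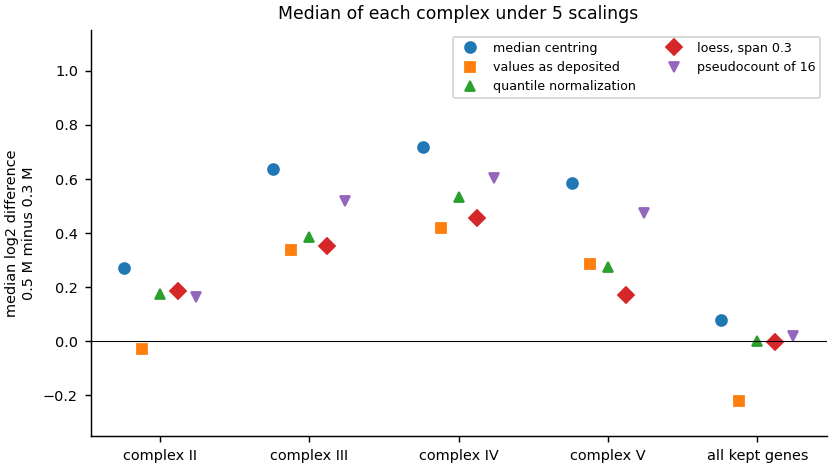
Median log2 difference (0.5 M minus 0.3 M) of complexes II, III, IV and V and of all kept genes under median centring, no centring, quantile normalization, loess and a pseudocount of 16. Complexes III, IV and V lie above 0 under all 5, while complex II falls to -0.03 with the values as deposited.

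Other genes of the pathway were read from lists. Assembly factors of complex IV, which insert haem and copper or hold parts together, had a median of 0.35 over 16 kept genes of 24 listed, with 2 past 2-fold in favour of 0.5 M and 0 in favour of 0.3 M, where 5.24% and 2.35% of all kept genes were. Cox20, a chaperone of the mitochondrially made subunit 2, had 100 and 208 (1.36) and Cox19, which handles copper, had 30 and 56 (1.20); Cox19 passed the filter only through the 0.5 M array, so its difference had to be positive. The haem enzymes lay on the other side, with Cox10, the haem farnesyltransferase, at 311 and 147 (-0.78) and Cox15, which completes haem A, at 61 and 29 (-0.77). The SD over genes was 0.62 for the complex IV assembly factors, 0.54 for the kept complex IV subunits and 0.56 for all kept genes. None of these SDs is an error.

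The other complexes had few kept assembly factors. For complex III 3 of 6 were kept, and Uqcc3 (0.86) and the chaperone Bcs1l, which inserts the Rieske protein (0.66, passing the filter at 0.5 M alone), stood against Uqcc2, at 4673 and 3235 (-0.23). For complex II only Sdhaf2, which helps attach flavin to Sdha, was kept (43 and 43, 0.30). For complex V 3 of the 4 on the array were kept. Atpif1, the inhibitor that stops complex V from running backwards, had 817 and 929 (0.48), Atpaf2 had 47 and 53 (0.47) and Tmem70 had 47 and 47 (0.30). Past 2-fold were 0 of these 7 genes, where 5.24% of all kept genes were in favour of 0.5 M and 2.35% in favour of 0.3 M.

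Regulators of respiratory genes stayed near the median of all genes, at 0.14 over 5 kept of 12, from Tfb1m (0.60) to Pprc1 (-0.05), with 0 past 2-fold. Gabpa, whose protein binds the ETS core, had 182 and 163 (0.14) and Nrf1 had 33 and 28 (0.06). Carriers that move ATP, phosphate, metabolites or electrons had a median of 0.48 over 9 kept of 12, 5 of them above their brightness neighbours. They ran from Etfb (0.74) to Slc25a31 (-0.26, passing the filter at 0.3 M alone), with 0 past 2-fold. Of all kept genes 5.24% and 2.35% were past 2-fold in favour of 0.5 M and 0.3 M. Genes with complex I names, the most similar set, had a median of 0.68 over 34 kept nuclear genes and an excess of 0.44 over their neighbours. The set was chosen by name alone and includes Ndufa4 (0.47) and Ndufa4l2 (0.44), whose place in complex I was not checked. Above their neighbours were 28 (49.8% of all kept genes were above theirs), and 6 were past 2-fold in favour of 0.5 M (5.24% of all kept genes). One of the 6, Ndufa11 (1.07), passed the filter at 0.5 M alone. The excess of this set is near the 0.47 of complex IV and above the 0.15 of complex V. The difference was not tested. Mitochondrial ribosomal proteins had an excess of 0.27 (58 genes) and cytosolic ribosomal proteins one of 0.15 (62 genes).

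**Figure D5:**
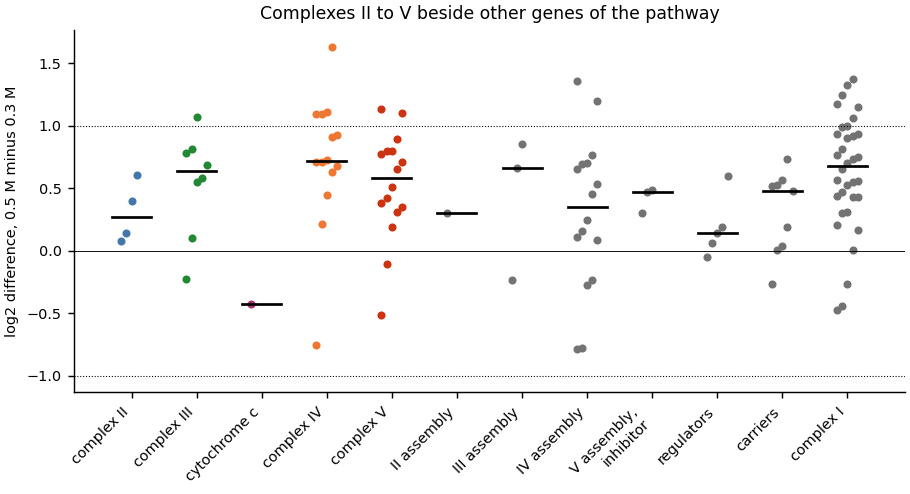
Log2 difference (0.5 M minus 0.3 M, median centred) of every kept gene in complexes II to V (coloured) and in lists (grey). The lists hold assembly factors, regulators, carriers and genes with complex I names. Bars mark medians and dotted lines mark 2-fold. Complex III, complex IV and the genes with complex I names have medians of 0.64, 0.72 and 0.68, whereas the regulators have 0.14.

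The labelled cell type was checked on its markers. Of 20 CTL markers, 19 are on the array, 19 had a value at 0.3 M and 18 at 0.5 M, and 17 were kept, with a median difference of 0.52. Their summed intensity was 51185 and 37229, most of it the transcription factor Tbx21 (39433 and 25174), and without Tbx21 it was 11752 and 12055. Cd8a (3677 and 2463), Gzmb (2493 and 2838) and Cd3d (849 and 990) were bright, while Cd3e (12 and 14) and Prf1 (33 and 26) were dim. Summed B cell markers had 400 and 567, and myeloid markers 440 and 269. Fibroblast and endothelial markers had 377 and 300. Red cell and platelet markers, mostly globins, had 17491 and 8140. The kept markers of these lists had median differences of 1.58 (3 genes), 0.33 (3), -0.10 (4) and -0.53 (8), in that order. The B cell markers were divided, with Cd79b at 94 and 328 and Blnk at 26 and 63, but Cd22 at 225 and 126. The part of RNA from other cells in the differences of the respiratory genes was not tested.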

How the data were processed

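Values are the intensities that the authors deposited as whole numbers on a linear scale, 1 column per fraction; the labels' protocols give amino allyl amplification and Cy5 labelling, while the sources used here give no scanner, background correction, normalization or rule for empty cells. The arrays had values for 18969 (0.3 M) and 16732 (0.5 M) of 23473 probes, 16154 on both. Symbols came from the array annotation, looked up in RefSeq GRCm38.p6; 20556 probes matched by Entrez identifier, 9 by accession, and 2783 had no symbol. Intensities were log2-transformed and centred on the median of the shared probes, a shift of -0.30, and probes of a gene were averaged. With 1 array per fraction no test was run, and precision is limited by that number. Every member is named. Members, lists and settings were chosen with earlier results of these data known. Neighbours were the 200 nearest genes in level, with no random draws. The alternatives numbered 10. The steps were tested on simulated data with known differences, a constant shift between arrays and no trend with brightness. That simulation does not cover the brightness trend seen here. Python 3.11.15, numpy 2.4.6, pandas 2.3.3 and statsmodels 0.14.6 were used.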

Additional observations from a re-analysis of the deposited data

How the results depend on the processing

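The median of all members kept its direction under every alternative run. It was 0.36 with the values as deposited, 0.38 with quantile normalization, 0.30 with loess and 0.55 with a pseudocount of 16, against 0.66. In that order of settings complex III had 0.34, 0.38, 0.35 and 0.52, complex IV 0.42, 0.54, 0.46 and 0.60, and complex V 0.28, 0.27, 0.17 and 0.47. Complex II was reversed with the values as deposited (-0.030), was 0.16 with the pseudocount and was 0.40 with the stricter filter, which drops dim genes. Members past 2-fold in favour of 0.5 M numbered 1 as deposited, 1 with quantile normalization, 1 with loess and 3 with the pseudocount, against 7, and those in favour of 0.3 M numbered 1 as deposited and 2 with loess, against 0. Removing the centring takes 0.30 from every difference; the cause of the other moves was not tested. The number above brightness neighbours ran from 31 to 36 over all alternatives, against 33 of 43, but the number of members changed too. It was 31 of 39 with the stricter filter, 36 of 44 with the brightest probe of each gene and 36 of 45 with each probe counted alone. Of the 43 single differences, 5 changed sign as deposited, 5 with loess and 3 with quantile normalization. All kept genes past 2-fold were 390 higher and 175 lower with centring, 121 and 579 as deposited, 250 and 288 with quantile normalization, 239 and 293 with loess, and 157 and 98 with the pseudocount. No paired analysis was possible because each fraction has 1 array.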
